A study of Mus musculus with 6 samples.

Results

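The 10 genes described here, *Atf3*, *Atf4*, *Atf5*, *Trib3*, *Fgf21*, *Gdf15*, *Asns*, *Chac1*, *Psat1* and *Phgdh*, are grouped as mitochondrial integrated stress response genes. They were taken by symbol from the 55401 genes counted in subcutaneous white adipose tissue (scWAT), all 10 had at least 1 count, and 9 of them were among the 16807 genes that passed the filter on low counts. In both groups of 3 males the alleles of *Yap* and *Taz* were floxed, and the controls lacked Cre (YT-FF, called WT in the sample labels), while the other group carried Cre under the *Adipoq* promoter (YT-AKO, Yapfl/fl/Tazfl/fl;AdipoqCre). This promoter is active in mature adipocytes, whereas the RNA was of the whole tissue. The mice were 8 weeks old and lived at room temperature. Each library held 17740987 to 21838493 counted fragments. The comparison of the groups addresses how loss of both factors in adipocytes alters gene expression in scWAT.

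In the integrated stress response, kinases that sense different stresses phosphorylate the translation initiation factor eIF2, which lowers general protein synthesis while ATF4 is translated more efficiently. ATF4 and its relatives then switch on genes for amino acid synthesis, amino acid transport and tRNA charging. In mitochondrial stress the signal reaches the kinase HRI through OMA1 and DELE1, and the secreted hormones FGF21 and GDF15 carry it outside the cell. Brown and beige fat are known sources of FGF21 and GDF15. Since ATF4 is largely controlled by translation, the RNA level of *Atf4* is not a measure of its protein.

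Of the targeted genes, *Yap1* was lower in the libraries labelled YT-AKO (log2 fold change -0.98 ± 0.167, SE), and *Wwtr1*, which encodes TAZ, was higher (0.89 ± 0.182), against it. Every direction below follows the labels. Counts are summed over all exons and cannot show the loss of a single one. By immunoblot, the paper reports less YAP and TAZ protein in scWAT of YT-AKO mice, a measure of protein and not of RNA. Markers of adipocytes were present in every library, with a summed level of 16451 to 21333 CPM (counts scaled to a common library size, scaled with edgeR's TMM factors) in YT-FF and 37562 to 80082 CPM in the libraries labelled YT-AKO, with 4 of 8 called higher. The median log2 fold change of the 8 was 0.61, with 1 negative and a largest value of 2.39. By RT-qPCR, the paper reports that expression of adipocyte identity genes in scWAT was not affected. Markers of beige and brown adipocytes summed to 163 to 233 CPM and 1653 to 3608 CPM, with 6 of 7 called higher. Of all tested genes, 12.6% were called higher and 9.01% lower. Other cell types moved as well. The 12 macrophage markers summed to 1381 to 1549 CPM in YT-FF and 2078 to 2772 CPM in YT-AKO, with 4 of 12 called higher, among them the complement genes *C1qa*, *C1qb* and *C1qc*. The other 8 macrophage markers were not called, 3 of the 12 had a negative log2 fold change, and the median of the 12 was 0.39. The 8 B cell markers gave 1883 to 2321 against 1197 to 1988 CPM with 4 called lower. The 7 skeletal muscle markers gave 118 to 432 CPM in YT-FF and 477 and 209 CPM in YT-AKO 2 and 3, but 3252 CPM in YT-AKO 1. The 5 epithelial markers summed to at most 3.48 CPM in any library, and *Krt5* was at 0 in all. The part of these cell types in the levels given below was not tested, and in whole tissue more cells of a type and more RNA per cell cannot be told apart.

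Among the 9 tested genes, 6 were higher and 0 were lower in the libraries labelled YT-AKO when called by the quasi-likelihood F-test of edgeR (threshold 0.05 after Benjamini-Hochberg adjustment across all tested genes), where 12.6% of all tested genes were called higher and 9.01% lower. The genes that rose were the 3 transcription factors *Atf4*, *Atf5* and *Atf3*, the pseudokinase gene *Trib3*, the asparagine synthetase gene *Asns* and *Gdf15*, all with TMM factors; with library totals *Atf4* and *Asns* were not called, and in TPM the groups overlapped for all of them but *Gdf15*. At an unadjusted p under 0.05, 7 of the 9 were higher, as were 22.2% of all tested genes. DESeq2 and limma-voom called the same 6 higher and 0 lower. Over all genes, DESeq2 called 2847 higher and 2224 lower of 30027 fitted, and limma-voom 1986 and 1647 of 16807. The median log2 fold change of the 9 genes was 0.83, beside -0.02 for all tested genes. For 7 of the 9, the lowest CPM among the libraries labelled YT-AKO exceeded the highest of YT-FF, a separation seen for 25.7% of all tested genes. Stricter limits (0.01 for the adjusted p together with 1 for the log2 fold change) were passed upward by 0.0892% of the tested genes and by 0 of the 9.

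**Figure D1:**
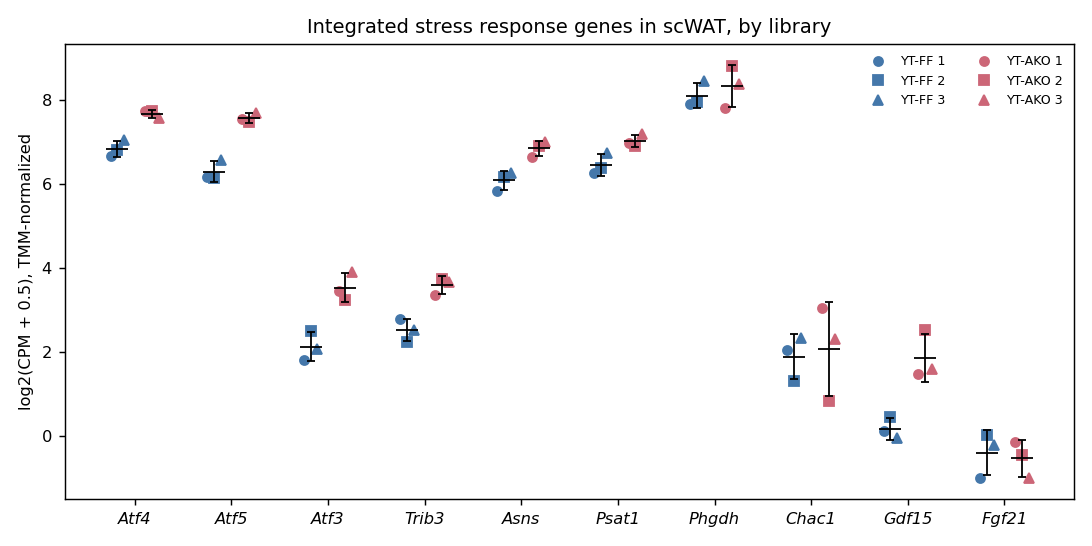
Levels of the 10 genes in each library, as log2(CPM + 0.5) with TMM factors, for YT-FF (blue) and the libraries labelled YT-AKO (red). Points are libraries, and black bars give the mean ± SD of 3 libraries. *Atf4*, *Atf5*, *Atf3*, *Trib3*, *Asns*, *Psat1* and *Gdf15* do not overlap between the groups, and *Phgdh*, *Chac1* and *Fgf21* do.

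*Atf4* (ENSMUSG00000042406, chromosome 15, 80255184 to 80257541 of mm10), the central factor of the response, stood at 100.2, 111 and 131 CPM in YT-FF 1 to 3 and at 211, 210.2 and 188 CPM in the libraries labelled YT-AKO 1 to 3. The groups did not overlap, and the libraries of each group lay close together. The log2 fold change was 0.83 (SE 0.165, 95% interval 0.45 to 1.21, edgeR, adjusted p = 0.0211).

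*Atf5* (ENSMUSG00000038539, chromosome 7, 44812256 to 44816658), a relative of ATF4 that is tied to the mitochondrial unfolded protein response, rose more. It had 70.8, 69.4 and 94.9 CPM in YT-FF and 185, 176 and 205 CPM in the libraries labelled YT-AKO. The log2 fold change was 1.27 (SE 0.181, 95% interval 0.85 to 1.69, edgeR, adjusted p = 0.0167), the smallest adjusted p of the 9 genes. Exons of *Nup62* and *Il4i1* on the opposite strand cover 4.11% of its exon bases, and fragments there were not assigned to either gene because strand was not used.

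*Atf3* (ENSMUSG00000026628, chromosome 1, 191170296 to 191218039), which is induced by ATF4 and also by many acute stimuli, was scarcer. The level was 3.02, 5.13 and 3.70 CPM in YT-FF (71, 117 and 72 counts) against 10.5, 8.89 and 14.4 CPM in the libraries labelled YT-AKO (181, 151 and 244 counts). All YT-AKO libraries were above all YT-FF libraries. The log2 fold change was 1.51 (SE 0.296, 95% interval 0.82 to 2.20, edgeR, adjusted p = 0.0206). As *Atf3* is also an immediate early gene, 14 other immediate early genes were examined beside it. Of these, edgeR called 2 higher, *Jund* and *Jun* (log2 fold changes 1.76 and 1.18), and 0 lower, beside 12.6% and 9.01% of all tested genes. The median log2 fold change of the 14 was 0.22. An unadjusted p under 0.05 in either direction was reached by 6 of them and by 40.8% of all tested genes. DESeq2 called 2 of the 14 higher and 2 lower, beside 2847 and 2224 of the 30027 genes it fitted. *Fos* and *Egr1* had log2 fold changes of 0.16 and -1.08, and neither passed the edgeR test. Exons of Gm11175 on the opposite strand cover 52.6% of the exon bases of *Jund*, so its count is uncertain.

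*Trib3* (ENSMUSG00000032715, chromosome 2, 152337422 to 152344032) is induced by ATF4 and feeds back on it. Its level was 6.34, 4.26 and 5.24 CPM in YT-FF and 9.69, 12.9 and 12.3 CPM in the libraries labelled YT-AKO, again with no overlap. On the log2 scale the fold change was 1.14 (SE 0.241, 95% interval 0.58 to 1.69, edgeR, adjusted p = 0.0236).

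Of the 3 enzymes of amino acid synthesis, 1 passed the test. *Asns* (ENSMUSG00000029752, chromosome 6, 7675169 to 7693254), which makes asparagine, had 56.2, 71.3 and 75.3 CPM in YT-FF and 99.7, 119 and 127 CPM in the libraries labelled YT-AKO. The log2 fold change of 0.77 (SE 0.178, edgeR, adjusted p = 0.0273) was the smallest of the 6 called. *Psat1* (ENSMUSG00000024640, chromosome 19, 15904678 to 15947337), which acts in serine synthesis after PHGDH, had 75.5, 82.0 and 106 CPM in YT-FF and 126, 118 and 144 CPM in YT-AKO. These values did not overlap, but the log2 fold change of 0.56 (SE 0.182, 95% interval 0.13 to 0.98) missed the threshold (edgeR, adjusted p = 0.0614). *Phgdh* (ENSMUSG00000053398, chromosome 3, 98313170 to 98339990), the first enzyme of serine synthesis, had 239.6, 244 and 346 CPM in YT-FF and 224, 446 and 334 CPM in YT-AKO. The groups overlapped, with the lowest and the highest of the 6 values both in YT-AKO. Its log2 fold change was 0.28 with a 95% interval of -0.38 to 0.93, which holds both no difference and a rise as large as that of *Atf4*. Of the 50-base words in its transcripts, 47.8% recur in other annotated genes, among them Gm7901 and Gm9347, and fragments that map to several places were not counted, so the level of *Phgdh* is uncertain.

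*Chac1* (ENSMUSG00000027313, chromosome 2, 119351229 to 119354381), whose product degrades glutathione and which is among the most sensitive targets of the ATF4 pathway in cultured cells, varied widely among the libraries labelled YT-AKO. YT-FF gave 3.62, 1.97 and 4.52 CPM, from 85, 45 and 88 counts, and the libraries labelled YT-AKO gave 7.78, 1.30 and 4.43 CPM, from 134, 22 and 75 counts. YT-AKO 1 was the highest and YT-AKO 2 the lowest of the 6 libraries. The log2 fold change was 0.42 with a 95% interval of -0.98 to 1.81 (edgeR, adjusted p = 0.625). Without YT-AKO 1 it was -0.23 and without YT-AKO 2 it was 0.86, so no direction was detectable.

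Of the 2 secreted hormones of the set, *Gdf15* was called higher and *Fgf21* was too scarce to test. *Gdf15* (ENSMUSG00000038508, chromosome 8, 70629393 to 70632456) stood at 0.596, 0.878 and 0.463 CPM in YT-FF (14, 20 and 9 counts) against 2.26, 5.24 and 2.54 CPM in the libraries labelled YT-AKO (39, 89 and 43 counts). Every YT-AKO library was above every YT-FF library, and YT-AKO 2 was highest. The log2 fold change of 2.36 (SE 0.483, 95% interval 1.24 to 3.48, edgeR, adjusted p = 0.0221) was the largest of the 9 genes, and without YT-AKO 2 it was 1.88. *Fgf21* (ENSMUSG00000030827, chromosome 7, 45613886 to 45615490) did not pass the filter, since YT-FF held 0, 12 and 7 of its fragments and the YT-AKO libraries 7, 4 and 0. In a library labelled YT-AKO, 3 counts correspond to 0.174 to 0.177 CPM. A fit without the filter gave a log2 fold change of -0.44 with an SE of 1.23 (edgeR, adjusted p = 0.832), so no difference in *Fgf21* was detectable at this depth. Of 6 receptor genes for the 2 hormones, 5 were tested. None was called by edgeR or DESeq2 and 0 had an unadjusted p under 0.05 in edgeR, with log2 fold changes from -0.25 for *Ret* to 0.15 for *Fgfr2*. *Klb*, the co-receptor of FGF21, was among the 5.

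Calls across the whole table depended on the YT-FF libraries. Without YT-FF 1, edgeR called 0 of 17183 genes in either direction (4665 at an unadjusted p under 0.05), and without YT-FF 2 it called 0 of 17140 higher and 2 lower (4507 unadjusted), so none of the 9 genes was called there, with 6 of them at an unadjusted p under 0.05 in each fit. Without YT-FF 3, where 704 of 17458 genes were called higher, *Atf4* and *Atf5* were the members of the 9 that were called. The log2 fold changes of the 6 genes stayed between 0.65 and 2.64 in all fits that left out 1 library. With 3 libraries against 3, the two-sided exact permutation test on CPM cannot go below p = 0.1, and it gave p = 0.1 for the 7 genes without overlap.

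How the libraries are scaled bears on each of these values. The median log2 fold change of all tested genes moved from -0.02 with TMM factors to -0.34 when library totals alone were used and to -0.63 in TPM (counts per exon length, scaled to the same total in every library). With library totals 1137 of all 16807 tested genes were called higher and 2820 lower. Of the 9 genes, *Atf5*, *Atf3*, *Trib3* and *Gdf15* stayed called, at log2 fold changes of 0.96, 1.20, 0.80 and 1.97, while *Atf4* (0.51, adjusted p = 0.0637) and *Asns* (0.44, adjusted p = 0.115, both edgeR) did not pass, and *Phgdh* turned to -0.07. In TPM the groups overlapped for all of these genes except *Gdf15*, which was above YT-FF in every YT-AKO library, and *Phgdh*, which was below. The log2 TPM difference was 0.16 for *Atf4* and 0.60 for *Atf5*, and it was negative for *Psat1*, *Phgdh*, *Chac1* and *Fgf21*. Relative to the median gene, all 9 tested genes were above it with TMM factors, with library totals and in TPM. *Fgf21*, which did not pass the filter, was above it in TPM by only 0.072, too little to read at its low counts. After a correction for gene length 8 of 9 were above it, with *Phgdh* at the median. After that correction 6 genes were called, with *Psat1* (log2 fold change 0.63) in and *Asns* (0.60) out. Of all 16807 tested genes, 1692 were then called higher and 763 lower.

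**Figure D2:**
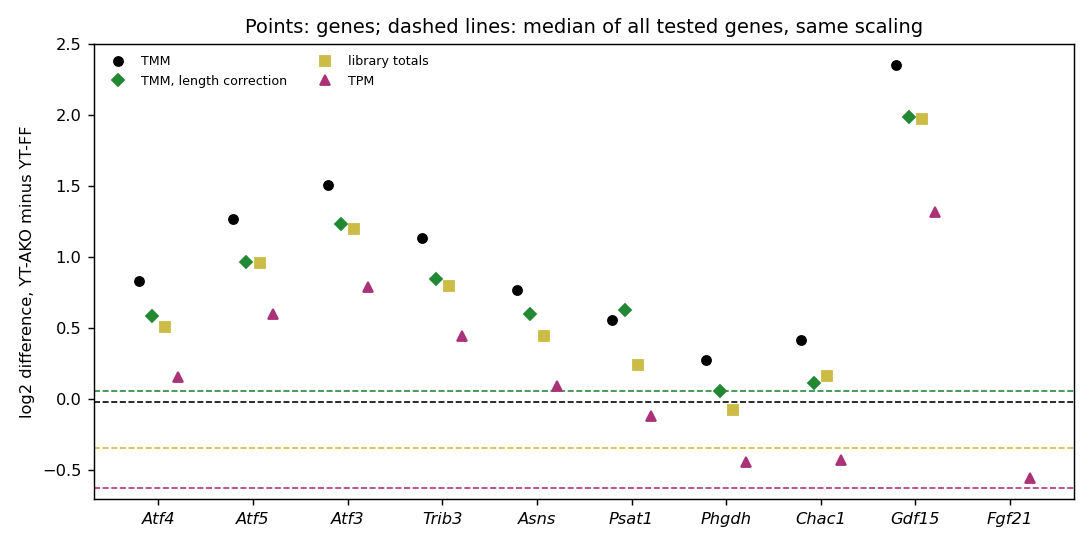
Log2 difference of the YT-AKO-labelled libraries minus YT-FF for each gene under 4 scalings (TMM, TMM with length correction, library totals, TPM); dashed lines mark the median of all tested genes under the scaling of the same colour. *Gdf15*, *Atf3*, *Atf5*, *Trib3*, *Atf4* and *Asns* lie above 0 under all 4, and *Phgdh* falls from 0.28 with TMM to -0.44 in TPM. *Fgf21* did not pass the filter used in the fits drawn here and appears in TPM only.

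Levels of different genes can be compared only per exon length, and here in TPM. In YT-FF the order of the means was *Phgdh* (420.3 ± 71.4 TPM, SD, n = 3), *Atf4* (184 ± 18.8), *Atf5* (149 ± 20.1), *Asns* (93.8 ± 12.9), *Psat1* (78.2 ± 11.0), *Trib3* (9.44 ± 1.84), *Chac1* (7.75 ± 2.69), *Atf3* (7.01 ± 2.13), *Gdf15* (1.34 ± 0.493) and *Fgf21* (1.19 ± 1.11). Neighbours in this order differed by less than the sum of their SDs, except at the steps below *Phgdh*, *Atf5*, *Psat1* and *Atf3*. In the libraries labelled YT-AKO, *Atf5* stood before *Atf4* in the means (232 ± 67.1 against 208 ± 47.2 TPM), within the SD of either.

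A ratio of 2 genes in the same library does not depend on how libraries are scaled. The TPM ratio of *Atf5* to *Atf4* was 0.835, 0.740 and 0.855 in YT-FF and 1.04, 0.992 and 1.29 in the libraries labelled YT-AKO, so it was higher in each of the latter. That of *Gdf15* to *Atf4* was 0.00757, 0.0101 and 0.00449 against 0.0137, 0.0317 and 0.0172, again without overlap. For *Phgdh* it went the other way, from 2.27, 2.09 and 2.50 to 1.01, 2.01 and 1.68. Among the 9 ratios to *Atf4* that were computed, these 3 did not overlap between the groups (p = 0.1 in each case by a two-sided exact permutation test, which cannot go lower), and those of *Atf3*, *Trib3*, *Asns*, *Psat1*, *Chac1* and *Ddit3* did. The share of all genes whose ratio to *Atf4* did not overlap was not computed, so whether 3 of 9 is unusual is not known. For *Asns* the ratio was 0.511 ± 0.0378 in YT-FF and 0.493 ± 0.0880 in YT-AKO (SD, n = 3).

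**Figure D3:**
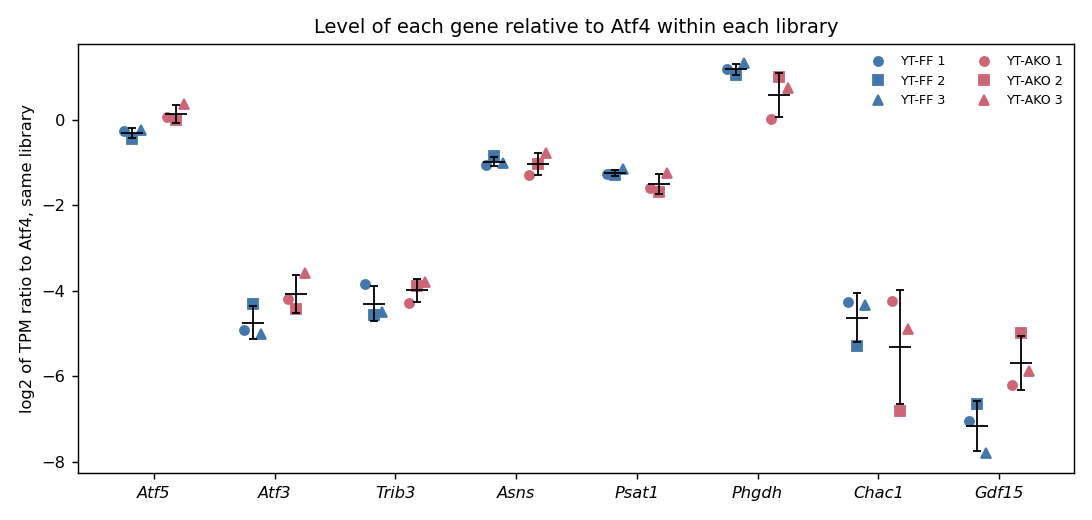
Log2 of the TPM ratio of each gene to *Atf4* in the same library, for YT-FF (blue) and the libraries labelled YT-AKO (red); points are libraries and black bars the mean ± SD of 3. *Atf5* and *Gdf15* lie higher in all YT-AKO libraries and *Phgdh* lower, while *Asns* overlaps, with mean ratios of 0.511 and 0.493.

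Many ATF4 targets carry a C/EBP-ATF response element (CARE) near the start of transcription, and 3 of the 10 genes showed its letters in the annotated promoter. RefSeq promoter windows of the mouse build GRCm38.p6 (250 bases before to 50 after the start) were matched by symbol for all 10 genes, in 13 windows. TGATGCAA or its reverse complement TTGCATCA occurred in those of *Atf3*, *Chac1* and *Fgf21*, and in 0.895% of all 32851 windows. The relaxed form TGATGNAA, which includes the first, was found on either strand also for *Trib3* and *Asns*, so in 5 of the 10 genes and in 3.97% of all windows. The palindrome TGACGTCA, the cAMP response element, was in none of the 13 windows and in 1.79% of all. The matches are printed with 11 bases on each side, on the gene's strand, with the matching letters in capitals. They are shown because their letters fit the exact or relaxed form of the element by which ATF4 is known to bind. The stretches lie at chr1:191183425-191183454 (*Atf3*, minus strand), chr2:119351038-119351067 (*Chac1*, plus strand), chr7:45615611-45615640 (*Fgf21*, minus strand), chr2:152344028-152344057 (*Trib3*, minus strand) and chr6:7693214-7693243 (*Asns*, minus strand), and the first capital is at position -110, -193, -139, 15 and -23 from the start, in that order.
*Atf3*: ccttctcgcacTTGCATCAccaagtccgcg
*Chac1*: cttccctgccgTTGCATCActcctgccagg
*Fgf21*: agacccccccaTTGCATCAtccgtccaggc
*Trib3*: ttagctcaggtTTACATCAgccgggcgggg
*Asns*: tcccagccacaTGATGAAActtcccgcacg
Of the 3 genes with the exact letters, *Atf3* was called higher, *Chac1* was not, and *Fgf21* was too scarce to test. Of those with the relaxed form alone, both *Trib3* and *Asns* were called. *Atf4*, *Atf5*, *Psat1*, *Phgdh* and *Gdf15* showed neither form in these windows, and 3 of them were called. A match of letters is a description of the window and not a site of binding.

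The wider pathway was examined in lists of genes with known roles. Upstream of ATF4, 17 genes of the eIF2 kinases, eIF2, its exchange factor eIF2B, the phosphatase arms and the mitochondrial relay were all tested, and 2 were higher and 2 lower (median log2 fold change 0.37), shares near the 12.6% and 9.01% of all tested genes. *Eif2ak2* (PKR, which senses double-stranded RNA) was 28.6, 33.7 and 31.6 CPM in YT-FF and 19.2, 11.0 and 17.1 CPM in the libraries labelled YT-AKO, a log2 fold change of -0.99. *Eif2ak4* (GCN2, which senses amino acid shortage) was 23.1, 28.5 and 24.7 against 13.9, 11.8 and 15.5 CPM, a log2 fold change of -0.89. *Eif2ak3* (PERK, the sensor of the endoplasmic reticulum) was 41.6, 37.6 and 35.2 against 31.2, 20.1 and 24.9 CPM, without overlap, but its log2 fold change of -0.59 missed the threshold (edgeR, adjusted p = 0.0642). *Eif2ak1* (HRI) had a log2 fold change of 0.14, and those of its relay genes *Dele1* and *Oma1* were 0.18 and 0.36, none past the test. The 2 genes that rose were *Eif2b4*, a subunit of eIF2B, and *Atad3a*, a mitochondrial membrane ATPase (log2 fold changes 1.24 and 0.75). For *Eif2b4* the log2 fold change was 0.76 without YT-AKO 2. It was not called with the length correction (1.03, edgeR, adjusted p = 0.0551). Exons of *Snx17* on the opposite strand cover 7.85% of its exon bases. *Atad3a* was not called with library totals (0.42, edgeR, adjusted p = 0.0817). With library totals 1 gene of this list was called higher and 3 lower, beside 1137 and 2820 of all 16807 tested genes.

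Of 23 other regulators and targets around ATF4, 22 were tested, with 6 higher and 3 lower, beside 12.6% and 9.01% of all tested genes. Their median log2 fold change was -0.01. *Cebpb*, a dimer partner of ATF4 and an adipogenic factor, had the largest rise, from 86.8, 106 and 155 CPM in YT-FF to 392, 551 and 324 CPM in the libraries labelled YT-AKO (log2 fold change 1.86, edgeR, adjusted p = 0.0177), with 20.7% of its exon bases shared with *Tmem189* on the opposite strand. *Ddit3*, which encodes the stress factor CHOP, went from 22.3, 16.1 and 14.3 CPM to 33.1, 88.5 and 44.3 CPM (log2 fold change 1.65, and 1.14 without YT-AKO 2). The symbol had 2 entries, of which the one with more counts was used. Other annotated genes, the second entry among them, cover 10.9% of its exon bases. *Nupr1*, *Eif4ebp1*, *Slc3a2* and *Cebpg* were also called higher. The genes that fell were the amino acid carriers *Slc7a1* (cationic amino acids, log2 fold change -1.08) and *Slc7a5* (large neutral amino acids, -0.96) and the pseudokinase gene *Trib2* (-0.69). *Slc7a5* and *Slc3a2*, whose products form one transporter, thus changed in opposite directions, and *Slc3a2* overlapped between the groups in TPM. With library totals alone the list had 4 genes higher and 5 lower, beside 1137 and 2820 of all 16807 tested genes.

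Among tRNA synthetases and the tRNA exporter gene *Xpot*, edgeR and DESeq2 each called 5 of 13 higher and 0 lower, with a median log2 fold change of 0.58 in edgeR. Over all tested genes edgeR called 12.6% higher and 9.01% lower. DESeq2 called 2847 higher and 2224 lower of the 30027 genes it fitted. An unadjusted p under 0.05 was reached by 8 of the 13 in either direction, and by 40.8% of all tested genes. *Gars*, *Mars1* and *Aars*, which charge glycine, methionine and alanine tRNAs, had log2 fold changes of 0.75, 0.67 and 0.66. With library totals in place of TMM factors edgeR called 0 of the 13, and 1137 higher and 2820 lower of all 16807 tested genes. Of the 12 enzymes of serine, proline and one-carbon metabolism, 4 were higher and 0 lower in edgeR and 4 higher and 1 lower in DESeq2, with a median log2 fold change of 0.40 in edgeR and 7 at an unadjusted p under 0.05 in either direction. *Psph*, the last enzyme of serine synthesis, rose from 19.1 ± 3.75 to 39.5 ± 6.77 CPM (SD, n = 3), and *Aldh1l1*, a cytosolic folate enzyme, rose by a log2 fold change of 1.04. The mitochondrial folate enzymes *Mthfd2* and *Shmt2*, known as strong targets of mitochondrial stress, had log2 fold changes of 0.08 and 0.22 and did not pass. With library totals 2 of these 12 enzymes were called higher and 2 lower.

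The chaperones and proteases of the mitochondrial matrix and inner membrane were mostly called higher. Of 12 genes, edgeR and DESeq2 each called 9 higher and 0 lower, with a median log2 fold change of 0.86. The edgeR shares of all tested genes were 12.6% higher and 9.01% lower, and DESeq2 called 2847 and 2224 of the 30027 genes it fitted. The matrix protease gene *Lonp1* went from 120 ± 12.3 to 228 ± 22.4 CPM, and the chaperone genes *Trap1* and *Dnaja3* rose by 1.08 and 0.79 on the log2 scale. *Hspe1* and *Clpp* had the largest log2 fold changes, 1.87 and 1.57, with SDs of 145 and 49.5 CPM in YT-AKO. With library totals 6 of the 12 were called higher. Of all 16807 tested genes, 1137 were then called higher and 2820 lower. Genes of the unfolded protein response of the endoplasmic reticulum were mixed, with 7 of 18 higher and 2 lower (median 0.33). *Manf*, *Pdia6* and *Sdf2l1*, which help proteins fold or are secreted under such stress, rose by 1.24, 0.98 and 0.98 on the log2 scale, while *Ern1*, the gene of the sensor IRE1, and *Edem1*, which acts in degradation, had log2 fold changes of -0.86 and -0.57. With library totals this list had 4 higher and 3 lower, and with the length correction 3 and 0. The length correction called 1692 of all tested genes higher and 763 lower. Without YT-FF 1 or YT-FF 2, edgeR called 0 genes higher in the whole table, these lists included. Without YT-FF 3, where 704 of 17458 genes were called higher, the upstream, other ATF4-axis, serine and chaperone lists had 1, 3, 2 and 4 genes called higher, and the tRNA synthetases and the endoplasmic reticulum list had 0.

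**Figure D4:**
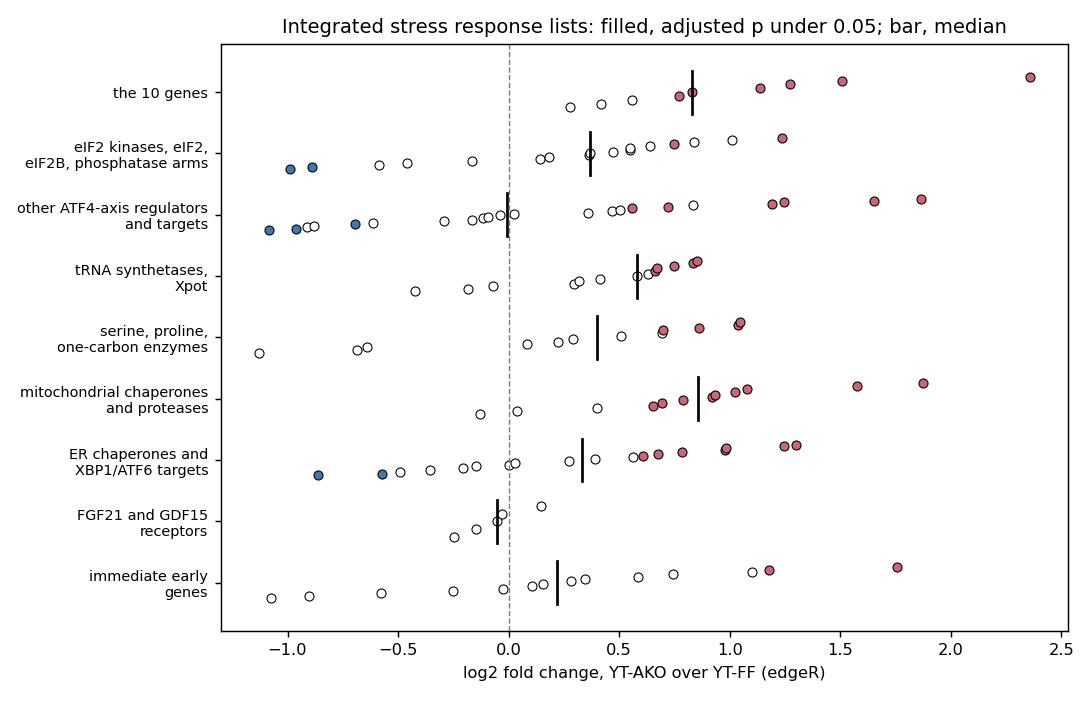
Log2 fold change (edgeR, TMM factors) of each tested gene in 9 lists, libraries labelled YT-AKO over YT-FF; filled points have an adjusted p under 0.05 (red higher, blue lower), open points do not, and black bars are list medians. The medians of the 10 genes (0.83, 9 tested) and of the mitochondrial chaperones and proteases (0.86) lie furthest to the right, and that of the other ATF4-axis genes is at -0.01.

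Genes whose levels followed those of *Atf4* most closely across the 6 libraries were sought among 15179 tested genes with a mean of at least 1 CPM, by the root mean square difference of log2(CPM + 0.5) after each gene's mean was subtracted. *Atp6v1h*, a subunit of the vacuolar proton pump, came first (0.0391), then *Isca1*, of iron-sulphur cluster assembly (0.0542), and *Dld*, a subunit of mitochondrial dehydrogenases (0.0563). For *Fgf21* the closest were Igkv3-2, *Ppef2* and Gm39469, at 0.174, 0.187 and 0.188, in a gene of at most 12 counts.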

How the data were processed

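Bulk RNA-seq libraries of scWAT, 3 per genotype, were grouped by the genotype in the labels. The authors mapped paired ends with HISAT2 (mm10), and featureCounts 2.0.1 assigned fragments to GENCODE vM25 exons. The deposited values are these raw counts, without strand, multi-mapping fragments or normalization. Of 55401 genes, 55141 were matched to symbols, and the 37 mitochondrial chromosome genes had 0 counts. P-values measure only the spread between these libraries.

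Counts were tested in R 4.3.3 with edgeR 4.0.16: filterByExpr (minimum count 10, minimum total 15), TMM, the quasi-likelihood test and Benjamini-Hochberg adjustment over 16807 genes, called at 0.05. SEs are the log2 fold change over the root of F. CPM use TMM factors, and TPM use summed exon length and no factors. Alternatives were DESeq2 1.42.0, limma-voom (limma 3.58.1), other scalings and filters, robust dispersions, a replicate block, a length correction (spline, 6 degrees of freedom) and each library left out. A floor of 3 counts covers counting error only. Shared 50-base words were sought in GENCODE vM21 transcripts.

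The genes and lists were chosen with earlier results of these data known. Named are the 10 genes, the targeted genes, up to 3 called genes per list and direction with the smallest p (with none called, the 2 smallest p), and the 3 genes most like *Atf4* and *Fgf21*. Other list genes are examples chosen after their values were seen. A gene that this rule names is not reported here.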

Additional observations from a re-analysis of the deposited data

How the results depend on the processing

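The 6 calls were unchanged with upper-quartile and DESeq2 size factors in edgeR, no filter, robust estimation, DESeq2 and limma-voom. Requiring 10 counts per library throughout left 5, since *Gdf15* was then not tested. Over all genes, edgeR called 2122 higher and 1515 lower. With library totals alone these counts were 1137 and 2820, with the length correction 1692 and 763, and in DESeq2 2847 and 2224. With the replicate block, edgeR called 0 of the 9 genes (7 at an unadjusted p under 0.05), and 24 genes higher and 9 lower in all; with the block and the length correction it called 0 of the 9 (7 unadjusted), and 59 and 22 in all. The numbers are not shown to pair libraries: the deviations of same-numbered libraries from their group means correlated at 0.139, -0.134 and -0.0912 across genes. The stricter limits (0.01 and 1) were passed by 0 of the 9 genes, 15 genes higher and 6 lower. With each library left out, 0 to 7 of the 9 genes, 0 to 2925 genes higher and 0 to 2426 lower were called, the lowest without YT-FF 1 or YT-FF 2 (4665 and 4507 genes at an unadjusted p under 0.05), and 704 and 528 without YT-FF 3; without YT-AKO 3, 895 were lower. Values that changed sign, none of them called, were *Phgdh* with library totals (-0.073), *Chac1* with the block and length correction (-0.17), *Ret* with the length correction (0.0096) and with the block as well (0.025), and *Fgfr2* with library totals (-0.15). With each library left out, *Chac1* ran from -0.23 to 0.86 and *Ret* from -0.61 to 0.15. For 30 genes named from the lists, 356 of 510 refits kept direction and call, 150 lost the call and 4 changed sign. The cause was not tested. With at most 12 counts in a library, depth limits *Fgf21*.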
